A study of Mus musculus with 8 samples.

Results

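Slc35c1 and Fuca1 are the transcripts of a fucose transporter and a fucosidase, and they were taken because the study's title names fucosylation. They are 2 of the 1428 genes in the deposited table of mouse colon tumours, found there by gene name. RNA sequencing of whole tumour tissue was compared between 4 KO libraries and 4 wild-type (WT) libraries, all on the C57BL/6N strain. The KO mice carried a conditional disruption of miR-29ab1 in the intestinal epithelium, under a label that includes the word Vilin, and the Cre line is not named. Tumours were induced by azoxymethane, a chemical carcinogen that acts on the colon, and by dextran sodium sulfate, an agent that damages the epithelium. Whether the WT mice carried an unrecombined allele, and how old the animals were, is not stated. Since no label ties a library to its own animal, each p-value measures only how these libraries vary, and that variation may be technical.

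Fucose is a sugar that cells add to the ends and cores of protein and lipid glycans. GDP-fucose, the activated donor, is made in the cytosol from GDP-mannose or from salvaged fucose. SLC35C1 carries it into the Golgi, where fucosyltransferases use it, and loss of SLC35C1 in humans causes leukocyte adhesion deficiency type II, in which selectin ligands lack fucose. FUCA1 works at the other end of the route: it is the lysosomal enzyme that removes fucose from glycans being degraded, and its loss in humans causes the storage disease fucosidosis. In the colon, fucosylated glycans are displayed on epithelial cells and mucins, and on T cells they modify surface receptors.

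The disrupted microRNAs are those of the Mir29a and Mir29b-1 locus on mouse chromosome 6. Their mature 3p arms are shown because the bases in capitals, bases 2 to 8 from the 5′ end, form the seed by which a microRNA pairs with the 3′ untranslated region (UTR) of a transcript. The sequences are from RefSeq on GRCm38.p6, and miR-29c-3p, from a second locus on chromosome 1, is set beside them since it carries the same seed. The arm miR-29b-3p is also encoded by Mir29b-2 on chromosome 1.
miR-29a-3p (chr6:31062673-31062694, minus strand): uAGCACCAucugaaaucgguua
miR-29b-3p (Mir29b-1, chr6:31063025-31063047, minus strand): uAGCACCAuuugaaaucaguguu
miR-29c-3p (Mir29c, chr1:195037600-195037621, plus strand): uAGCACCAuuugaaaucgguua
The seeds of the 3 arms were identical. No gene named for miR-29 is in the table, so the deletion itself could not be checked in these values.

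The table is a selection: every gene in it differed between KO and WT at an unadjusted p below 0.05 (highest p 0.05), and Slc35c1 and Fuca1 were in it on that ground. A normalized count is here the number of reads assigned to a gene divided by a size factor for its library. The deposited adjusted p-values correspond to an adjustment over 19985 genes, of which 1410 (7.06%) had an unadjusted p below 0.05 with an adjusted p below 1. Only 8 genes (0.04%) had an adjusted p below 0.05, and neither Slc35c1 nor Fuca1 was among them. KO replicate 4 stood apart, holding the top KO value for 622 of the 829 genes that were higher in KO (75.0%). WT replicate 4 was the lowest WT library in 335 of those 829 genes (40.4%).

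Slc35c1, the Golgi GDP-fucose transporter, had 3771, 4403, 4010 and 6003 normalized counts in KO replicates 1 to 4, against 3559, 3092, 3787 and 2230 in WT replicates 1 to 4. KO replicate 4 was the highest of the 8 libraries and WT replicate 4 the lowest. The groups overlapped, since WT replicate 3 lay above KO replicate 1. The mean was 4547 ± 1005 in KO tumours and 3167 ± 689 in WT tumours (SD, n = 4 each), a ratio of 1.44. In the authors' deposited table the log2 fold change of KO over WT was 0.52, with an unadjusted p of 0.0370 and an adjusted p of 0.696 from DESeq2. An exact two-sided permutation test over the 8 libraries (70 arrangements), on log2(normalized count + 1), gave a mean difference of 0.53 and p = 0.0571, where the smallest p this design allows is 0.0286. Slc35c1 was listed for a small p in these same libraries, so the permutation test is not independent of that selection. Without WT replicate 3 the exact permutation p was 0.0286, but this leaves out the only WT library that lay above a KO library. Without any other single library the exact permutation p lay between 0.0571 and 0.143, the highest being that without KO replicate 4.

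Fuca1, the lysosomal α-L-fucosidase, had 5575, 4415, 4143 and 6848 normalized counts in KO replicates 1 to 4, against 3873, 3952, 3644 and 4035 in WT replicates 1 to 4. Every KO library lay above every WT library, and KO replicates 4 and 1 were well above KO replicates 2 and 3. The mean was 5245 ± 1236 in KO tumours and 3876 ± 168 in WT tumours (SD, n = 4 each), a ratio of 1.35. The authors' deposited table gives Fuca1 a log2 fold change of 0.44, an unadjusted p of 0.0372 and an adjusted p of 0.698 from DESeq2. The exact permutation test, two-sided, gave a mean difference of 0.41 on the log2 scale and p = 0.0286, the smallest this design allows. That p restates that the groups did not overlap. Fuca1 was listed for a small p in these same libraries, so the permutation test is not independent of that selection. Without any 1 WT library the exact permutation p was between 0.0857 and 0.114, although every KO library still lay above every WT library. With groups of unequal size, other arrangements of the libraries gave as large a difference of means. Separation of the groups in this direction was found in 342 of the 1428 listed genes (23.9%), so it is common in a list selected for small p. Only the 829 genes listed higher in KO could separate in this direction, so among them it is more common still. With TMM scaling over the listed genes in place of the deposited size factors, Fuca1 stood at 4172 in KO replicate 3 and 4174 in KO replicate 2, below WT replicates 1 (4250) and 4 (4385), and the permutation p was 0.200. That scaling shifted the log2 fold changes of the listed genes by a median of -0.16, and under it the log2 fold change from edgeR was 0.35 for Slc35c1 and 0.26 for Fuca1. TMM takes most genes as unchanged, whereas every listed gene was selected for a difference. With the deposited size factors, the median log2 fold change of the listed genes from edgeR was 0.48. Centring on such a list lowers KO values against WT values, so the TMM values cannot decide whether the Fuca1 groups separate.

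**Figure D1:**
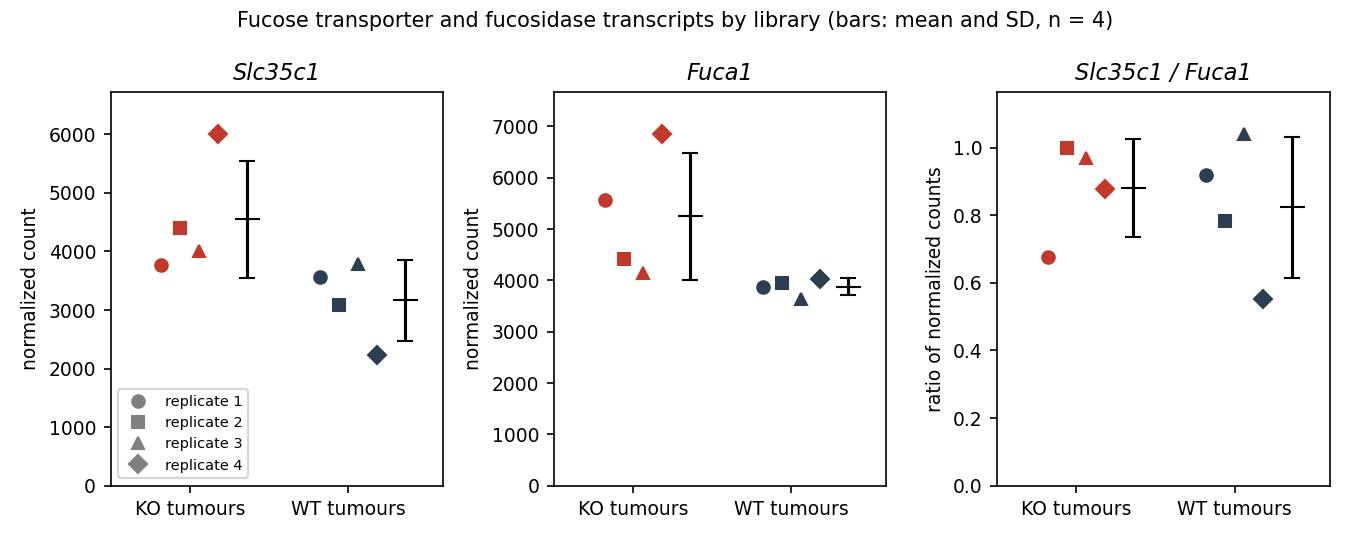
Normalized counts of Slc35c1 and Fuca1, and their ratio, in each of the 4 KO and 4 WT libraries (vertical axes start at 0; marker shape gives the replicate number; black bars are the mean and SD). For Slc35c1, WT replicate 3 (3787) lies above KO replicate 1 (3771), while for Fuca1 the lowest KO library (4143) lies above the highest WT library (4035).

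Both transcripts were abundant, so counting error was small beside the spread between libraries. The normalized counts of Slc35c1 correspond to 3911, 4109, 4507 and 6135 whole reads in KO replicates 1 to 4 and to 3659, 3010, 3745 and 2204 in WT replicates 1 to 4. The exact Poisson 95% interval, which covers counting error only, ran from 3653 to 3891 normalized counts in KO replicate 1 and from 3667 to 3910 in WT replicate 3, so these libraries of opposite groups could not be told apart. In KO replicate 4 it ran from 5854 to 6155, and in WT replicate 4 from 2138 to 2325. For Fuca1 the reads numbered 5783, 4120, 4656 and 6999 in KO replicates 1 to 4 and 3982, 3847, 3603 and 3988 in WT replicates 1 to 4. The interval of its lowest KO library, replicate 3, was 4025 to 4263, and that of its highest WT library, replicate 4, was 3910 to 4162. These overlap, so at its narrowest the gap between the Fuca1 groups is within counting error.

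The genes differed in where their spread lay. The coefficient of variation of Slc35c1 was 22.1% in KO libraries and 21.7% in WT libraries. That of Fuca1 was 23.6% in KO libraries and 4.34% in WT libraries. The highest WT library held 1.70 times the lowest for Slc35c1 and 1.11 times for Fuca1, while among KO libraries these ratios were 1.59 for Slc35c1 and 1.65 for Fuca1. Expressed against the WT mean, KO replicates 1 to 4 stood at 1.19, 1.39, 1.27 and 1.90 times for Slc35c1 and at 1.44, 1.14, 1.07 and 1.77 times for Fuca1. KO replicate 4 was thus the highest for both genes, but KO replicate 1 was the lowest KO library for Slc35c1 and the next to highest for Fuca1.

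The ratio of Slc35c1 to Fuca1 within a library, which does not depend on the size factor, was 0.676, 0.997, 0.968 and 0.877 in KO replicates 1 to 4, against 0.919, 0.782, 1.04 and 0.553 in WT replicates 1 to 4. The groups overlapped over most of their range. The mean ratio was 0.880 ± 0.145 in KO tumours and 0.823 ± 0.209 in WT tumours (SD, n = 4 each), and the exact permutation test, two-sided, gave p = 0.629 for a log2 difference of 0.12. The direction turned when WT replicate 4 was left out, to a log2 difference of -0.06. Per kilobase of exon, in normalized counts, Slc35c1 averaged 1388 ± 307 in KO and 967 ± 210 in WT, and Fuca1 averaged 1606 ± 378 in KO and 1186.4 ± 51.5 in WT (SD, n = 4 each). On that scale, averaged over all 8 libraries, Fuca1 ranked 55 and Slc35c1 ranked 69 among the 1428 listed genes.

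KO replicate 4 carried part of both differences. Without it, the KO mean was 4061 ± 319 for Slc35c1 and 4711 ± 761 for Fuca1 (SD, n = 3), which is 1.28 and 1.22 times the WT mean. Leaving out 1 library at a time, the ratio of means ran from 1.28 to 1.54 for Slc35c1, with 1.31 without WT replicate 4, and from 1.22 to 1.45 for Fuca1. It stayed above 1 for both genes whichever library was left out. Without replicate 4 of both groups it was 1.17 for Slc35c1 and 1.23 for Fuca1.

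**Figure D2:**
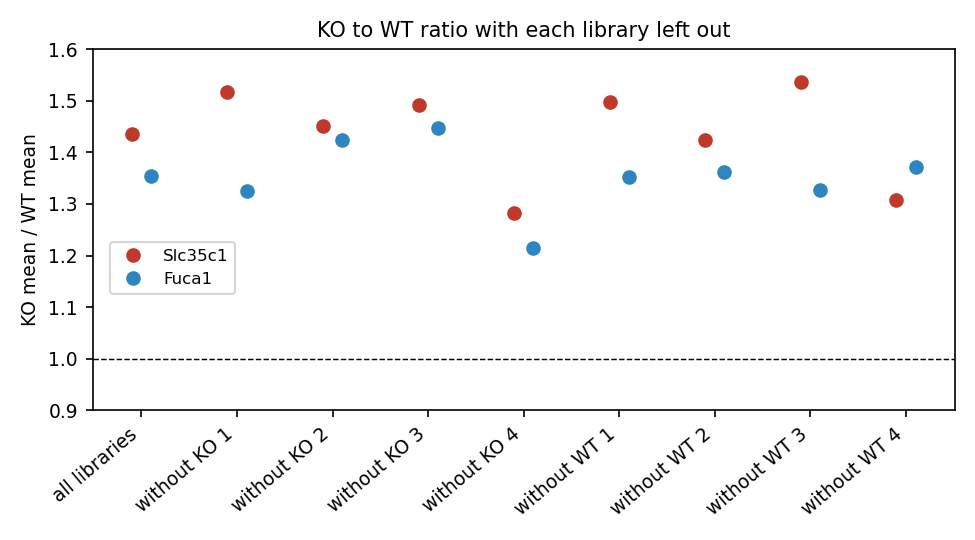
Ratio of the KO mean to the WT mean (normalized counts) for Slc35c1 and Fuca1 with all libraries and with each library left out in turn; the dashed line marks a ratio of 1. The lowest ratios, 1.28 for Slc35c1 and 1.22 for Fuca1, are those without KO replicate 4.

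After a refit of whole reads, recovered from the normalized counts, with edgeR's quasi-likelihood test, both genes had an unadjusted p below 0.05, at 0.0350 for Slc35c1 and 0.0328 for Fuca1, as did 1112 of the 1428 listed genes with an unchanged sign (77.9%). The adjusted p over 19985 genes was 0.867 for each. A DESeq2 refit gave a log2 fold change of 0.52 ± 0.24 (SE) for Slc35c1, adjusted p = 0.599, and of 0.44 ± 0.19 (SE) for Fuca1, adjusted p = 0.558. The unadjusted edgeR p of Slc35c1 was no longer below 0.05 without KO replicate 2, KO replicate 4, WT replicate 2 or WT replicate 4, where it lay between 0.0571 and 0.0771. That of Fuca1 was no longer below 0.05 without KO replicate 1, KO replicate 4, WT replicate 1, WT replicate 2 or WT replicate 3, where it lay between 0.0589 and 0.0768. Leaving out 1 library, 643 to 918 of the 1428 listed genes kept an unadjusted edgeR p below 0.05 with an unchanged sign. The count was lowest with WT replicate 4 dropped and highest with KO replicate 3 dropped. Such losses were therefore common in the list and are not particular to Slc35c1 or Fuca1. Both genes lay past the middle of the list by deposited p, where Slc35c1 ranked 1063 and Fuca1 1066 of 1410. By deposited log2 fold change they ranked 690 and 751 of the 829 genes listed higher, whose median was 1.00.

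The rest of the fucose route was not in the table. Of 34 genes in 5 lists covering donor synthesis, Golgi transport, fucosyltransferases, fucosidases, and fucose uptake and recognition, 2 were listed (5.88%, beside 7.06% of all genes behind the adjustment), both higher in KO. They were Slc35c1, of 2 genes for GDP-fucose transport, and Fuca1, of 2 fucosidases. How many of these 34 genes, or of the genes in the other lists below, were among those behind the adjustment is not known. The percentages may therefore rest on unlike sets of genes. None of the 10 genes of donor synthesis was listed, among them Gmds and Tsta3 of the de novo route and Fuk and Fpgt of the salvage route. None of the 11 fucosyltransferases was listed, among them Fut2, which fucosylates the intestinal epithelial surface, Fut8, which adds core fucose, Fut4 and Fut7, which complete selectin ligands, and Pofut1, which adds fucose to Notch receptors. None of the 9 genes of uptake and recognition, such as the selectins Sele and Selp, was listed. A gene that is not listed has no value here, so its level and its difference between groups were not analysed.

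The study's title places fucosylation in CD8+ T cells, whereas these values are from whole tumours. Of 15 T cell genes, 3 were listed (beside 7.06% of all genes), each with a higher KO mean and an adjusted p above 0.05: Cd4, Trbc1, which encodes a T cell receptor constant region, and Cd8b1, a CD8 chain. Cd8b1 had 9.64, 0, 2.67 and 10.8 normalized counts in KO replicates 1 to 4, against 0, 0, 0 and 1.01 in WT replicates 1 to 4. In normalized counts per kilobase of exon, Trbc1 averaged 114 in KO and 67.2 in WT, and Cd8b1 averaged 3.89 in KO and 0.171 in WT, far below the 1606 and 1186.4 of Fuca1. Which cells made the Slc35c1 and Fuca1 transcripts cannot be told from bulk tissue, in which more cells of a type and more RNA per cell cannot be told apart.

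Listed markers of several cell types were also higher in KO, and each count of listed markers stands beside the 7.06% of all genes that were listed. Every sum below covers only listed markers, each selected for a difference between KO and WT. A difference between the sums is therefore built in and does not measure cell content, and markers that are not listed have no value here. Of 20 colon epithelial genes 4 were listed, all higher in KO: the brush border proteins Cdhr5 and Cdhr2, the protease Mep1a and the lectin Lgals4. Their summed normalized counts ranged from 45492 to 108754 in KO libraries and from 24253 to 44505 in WT libraries, with the highest sum in KO replicate 4 and the lowest in WT replicate 4. Lgals4 made up most of this sum, and the markers did not share 1 order among WT libraries: Cdhr2 was lowest in WT replicate 1 (3868) and stood at 4590 in WT replicate 4. None of these 4 was at 0, and Epcam, Cdh1 and Vil1 were not listed. Lgals4 had 35510, 39648, 32521 and 70224 normalized counts in KO replicates 1 to 4, against 27129, 32012, 33046 and 13988 in WT replicates 1 to 4. For Lgals4, as for Slc35c1, KO replicate 4 was highest and WT replicate 4 lowest. All 10 B cell genes of the marker list were also listed higher, with summed normalized counts of 179 to 3289 in KO libraries, the highest in KO replicate 4, and of 94.5 to 277 in WT libraries. No goblet cell gene of 9 and no macrophage gene of 10 was listed. Of 8 RNA quality and stress genes, Fosb and Fos were listed, Fosb with an adjusted p of 0.045 from DESeq2 in the authors' deposited table, and their sums were 2479 to 3901 in KO libraries and 1666 to 2353 in WT libraries. Of 9 neutrophil and mast cell genes 3 were listed, all lower, with sums of 11.7 to 449 in KO libraries and 86.0 to 2191 in WT libraries. Mpo was at 0 in every KO library and in WT replicates 2 and 3, and Tpsb2 was at 0 in KO replicate 4. Of 8 fibroblast genes, Dpt and Mfap5 were listed higher. Their sums were 130.2 to 201 in KO libraries and 65.8 to 129.4 in WT libraries. Dpt by itself overlapped, at 121 in KO replicate 1 and 124 in WT replicate 3. Lyve1, of 5 endothelial genes, and Myocd, of 5 smooth muscle genes, were listed higher as well. Lyve1 ranged from 31.1 to 159 in KO libraries and from 23.6 to 50.6 in WT libraries, and Myocd from 2.14 to 24.0 in KO libraries and from 0 to 6.81 in WT libraries. The part of these cell types, of RNA quality and of these libraries in the Slc35c1 and Fuca1 values was not tested.

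The genes of most like pattern were found among the 713 other listed genes with a mean at or above the table's median of 179.7 normalized counts, by the root mean square difference between profiles of log2(normalized count + 1) over the 8 libraries, each profile centred on its own mean. For Slc35c1 they were Atg9a, an autophagy protein (0.070), Synj1, a phosphoinositide phosphatase (0.078), Dnajc4 (0.097), the tetraspanin Tspan15 (0.10) and Scamp1, a secretory carrier membrane protein (0.10), where the median gene was at 0.48. Each had its highest value in KO replicate 4 and its lowest in WT replicate 4. For Fuca1 they were Plxnb2, a semaphorin receptor (0.10), Sipa1l1 (0.11), the membrane protein Pllp (0.11), Zcchc6, a terminal uridylyltransferase (0.12), and 0610030E20Rik (0.13), where the median gene was at 0.46. Fuca1 and Slc35c1 differed from each other by 0.29, rank 198 in both orders. All of the compared genes were listed for a difference between KO and WT, so some likeness is built into the list.

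**Figure D3:**
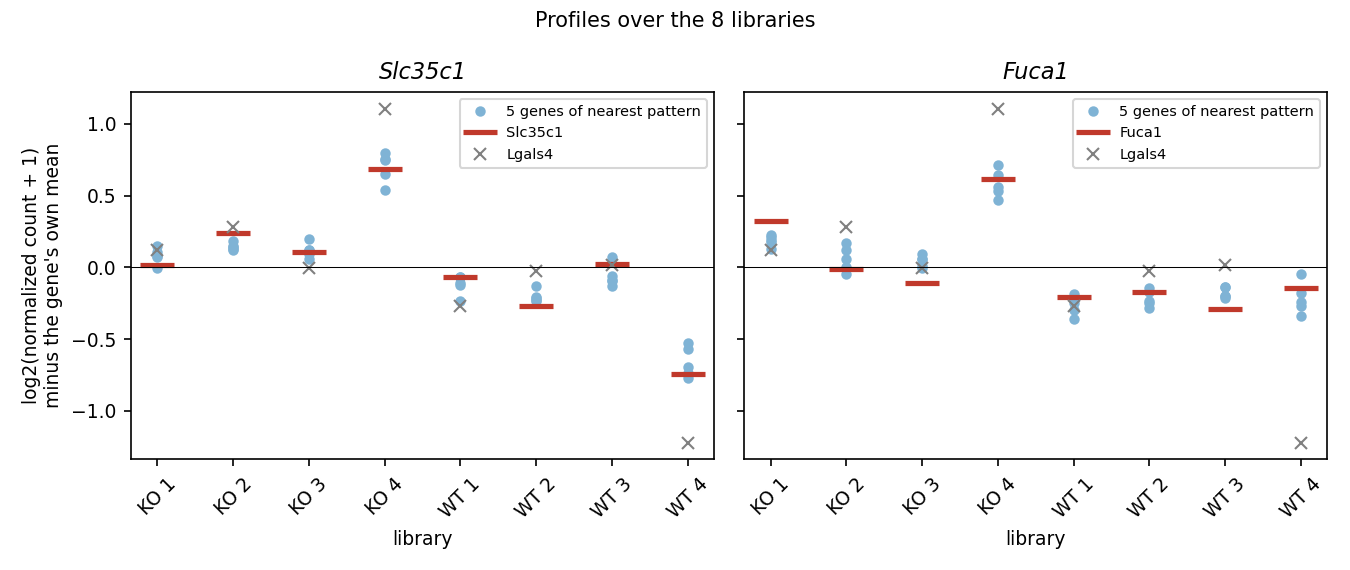
Profiles of Slc35c1 (left) and Fuca1 (right) over the 8 libraries, as log2(normalized count + 1) minus the gene's own mean; red bars are the named gene, blue points its 5 genes of nearest pattern, and grey crosses the epithelial lectin Lgals4. Slc35c1 and Lgals4 are both lowest in WT replicate 4, where Fuca1 is the highest of the WT libraries.

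Other genes that supply sugars to glycans, build them or break them down were partly listed, and none passed an adjusted p of 0.05. Of 21 other nucleotide sugar transporters and family members, 3 were listed (beside 7.06% of all genes), all higher in KO, with a median log2 fold change of 0.57 beside 1.00 for all genes listed higher. Slc35e1 had 1622, 1775, 1820 and 2655 normalized counts in KO replicates 1 to 4, against 987, 1303, 1507 and 1240 in WT replicates 1 to 4, and its groups did not overlap. Such separation with KO above WT was found in 23.9% of the listed genes. Slc35b4, a transporter of UDP-xylose and UDP-N-acetylglucosamine, averaged 762.0 ± 55.8 in KO and 578.6 ± 97.9 in WT (SD, n = 4 each). Slc35f6 averaged 678 ± 144 in KO and 456 ± 117 in WT (SD, n = 4 each). Slc35b4 was highest in KO replicate 3, at 807, beside 798 in KO replicate 4, while Slc35e1 and Slc35f6 were highest in KO replicate 4.

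Among 24 other lysosomal glycosidases and sulfatases 2 were listed (beside 7.06% of all genes), 1 higher and 1 lower in KO. The lower one was Gla, the lysosomal α-galactosidase, which had 315, 325, 335 and 302 normalized counts in KO replicates 1 to 4, against 413, 407, 354 and 454 in WT replicates 1 to 4, so every KO library was below every WT library. All listed genes were selected for small p, and the share that separated in this direction was not counted. The authors' deposited table gives Gla a log2 fold change of -0.35 and a DESeq2 adjusted p of 0.682. None of the 20 genes of lysosome biogenesis and lysosomal proteases was listed.

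Of 25 enzymes of N- and O-glycan chains 4 were listed (beside 7.06% of all genes), all higher in KO. B3gnt3, which extends core 1 O-glycans with N-acetylglucosamine, had 3665, 4417, 4127 and 5524 normalized counts in KO replicates 1 to 4, against 1473, 1977, 3316 and 3046 in WT replicates 1 to 4. Its groups did not overlap, as for 23.9% of the listed genes in this direction, and its adjusted p in the authors' deposited table was 0.443 from DESeq2. Mgat3, which adds the bisecting N-acetylglucosamine, averaged 2025 ± 845 in KO and 1245 ± 217 in WT (SD, n = 4 each). Mgat4a, which adds a branch to N-glycans, averaged 1704 ± 297 in KO and 1179 ± 240 in WT (SD, n = 4 each). Gcnt1, which makes the core 2 branch that carries selectin ligands, averaged 1085 ± 620 in KO and 594 ± 227 in WT (SD, n = 4 each), with 1999 in KO replicate 4. The ratio of means without KO replicate 4 was 1.66 for B3gnt3, 1.29 for Mgat3, 1.56 for Mgat4a and 1.32 for Gcnt1.

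**Figure D4:**
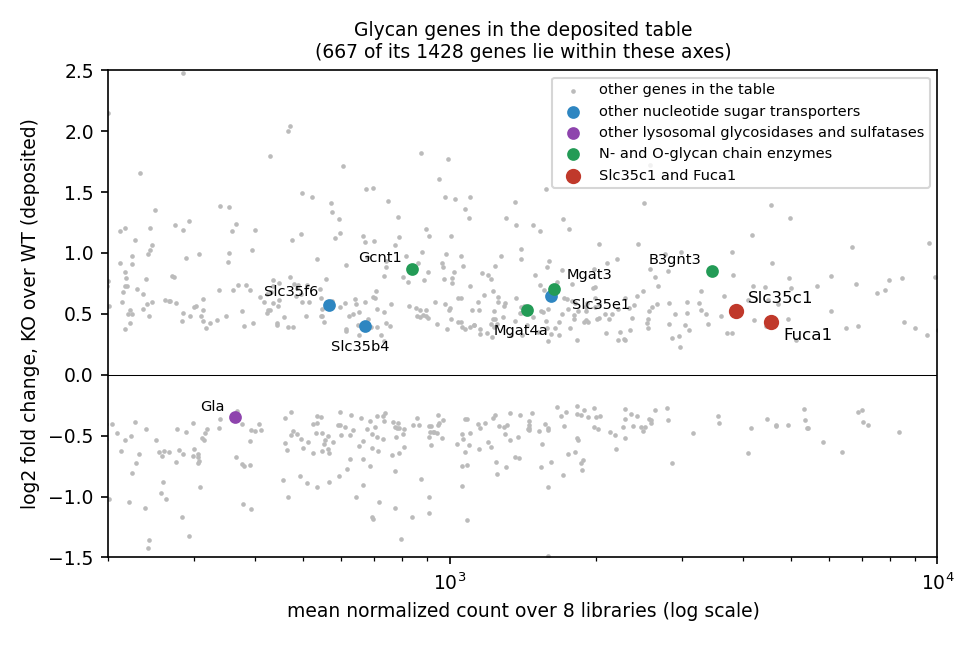
Deposited log2 fold change (KO over WT) against mean normalized count over 8 libraries (log axis) for the 667 of 1428 listed genes within these axes; Slc35c1, Fuca1 and the named members of 3 glycan lists are coloured. Slc35c1 (0.52) and Fuca1 (0.44) lie below the 0.85 of B3gnt3, and Gla (-0.35) is the one coloured gene below 0.

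The title also names Ras signalling. Of 30 Ras regulators and MAPK targets 3 were listed (beside 7.06% of all genes), each with a higher KO mean and an adjusted p above 0.05, and their median log2 fold change was 0.54. Fos, an immediate early transcription factor, averaged 3071 ± 588 normalized counts in KO and 1909 ± 296 in WT (SD, n = 4 each). Dusp6, a phosphatase induced by ERK signalling, averaged 2619 ± 700 in KO and 1800 ± 312 in WT (SD, n = 4 each). From the 16 genes of the Notch pathway, whose receptors carry O-linked fucose, 1 was listed (beside the same 7.06%), the ligand Dll1, which averaged 269.5 ± 93.9 in KO and 162.3 ± 51.9 in WT (SD, n = 4 each).

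Neither gene carried the match to the miR-29 seed. The motif TGGTGCT, the reverse complement of bases 2 to 8 of the 3p arms, was searched on the transcript strand of the longest 3′ UTR of each protein-coding gene in GENCODE M21 (GRCm38). It was not found in the 1451 bases of Slc35c1 or the 1097 bases of Fuca1, nor in any other annotated 3′ UTR of either gene. Of the 34 fucose genes 5 held it (14.7%), beside 2750 of 20853 genes searched (13.2%) and 167 of the 1031 searched genes of the table (16.2%). Among the 5 were the fucosyltransferase genes Sec1, Fut9 and Pofut1 and the glucose transporter Slc2a3, and none of the 5 was listed. The sites of the fucosyltransferases are shown with the motif in capitals, as the places where the route meets the seed.
Sec1 (chr7:45678346-45678375, minus strand): tactgccttccTGGTGCTctgagcacagtc
Fut9 (chr4:25614317-25614346, minus strand): gtcttgtacagTGGTGCTgctcttcagcta
Pofut1 (chr2:153267812-153267841, plus strand): cagaggggagcTGGTGCTgcctgtgggtga
No site was followed by an A, the base that extends the match to 8 letters, in any of the 5 genes. A match is a description of these letters and not evidence of a functional site, and the lack of one says only that the letters are not in these UTRs.

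In the coordinates of the deposited table, which carries gene identifiers of a C57BL/6NJ genome annotation, Slc35c1 lies on the minus strand of chromosome 2 from 97103272 to 97111055, with 3275 bases of exon. Fuca1 lies on the plus strand of chromosome 4 from 143321387 to 143340967, with 3267 bases of exon. Both are annotated as protein-coding.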

How the data were processed

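Total RNA of 8 mouse colon tumour samples was extracted with TRIzol and made into strand-marking libraries, per the labels' protocols. HISAT2, DESeq2 and the build GRCh38, a human build, are listed in the submitters' processing notes. The gene identifiers are of the mouse C57BL/6NJ annotation, so the table's coordinates were compared with no other build. Per the file headers, the deposited table gives a normalized signal per library (counts divided by size factors), group means, a log2 fold change of KO over WT, a p-value and an adjusted p-value for 1428 genes. The adjusted p is exactly 1 for 18 of them, which were treated as having none. The number of genes behind the adjustment, 19985, was recovered by dividing adjusted by unadjusted p at each step (218 of 231 steps).

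Size factors were recovered such that 100% of values in each library, multiplied by them, fell within 0.001 of a whole number. The recovered reads sum to 1316787 to 2180787 in KO libraries and 1202677 to 1268646 in WT libraries over the listed genes; total depth per library, and whether reads were counted by strand, are not stated. They were refitted with edgeR 4.0.16 (quasi-likelihood; deposited size factors), with TMM, a minimum mean of 10 or a replicate block as alternatives, with DESeq2 1.42.0 and with limma 3.58.1 (pseudocount 1 or 0.1) in R 4.3.3, adjusted by Benjamini-Hochberg over 19985 genes and tested on simulated data. These refits, and the permutation tests of Slc35c1 and Fuca1, see only selected genes and are not independent tests. All pairs of replicates differed by more than counting noise (lowest ratio of chi-square to its degrees of freedom 18.6), and each was kept as its own sample.

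The genes and lists were chosen with earlier results of these data known. Named genes are the members, listed genes of the fucose lists, up to 4 listed genes by smallest p from each other list, the 5 most like patterns and listed genes starting within 500000 bases. Some genes that these rules select are not reported here. Matching of list symbols was exact or by an unambiguous RefSeq synonym.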

Additional observations from a re-analysis of the deposited data

Results flagged for a closer look

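Among 45 named genes and the Slc35c1 to Fuca1 ratio, 12 of 90 groups of 4 libraries that were not constant held a library whose gap to its nearest neighbour exceeded the 95% critical value of Dixon's test for an outlying value. Chance flags about 1 group in 20, but these genes were not drawn at random, and the 2 counts cannot be compared. Neither Slc35c1 nor Fuca1 was among them. KO replicate 4 was the outlying library in 9 of the 12. It was so for all 5 genes closest to Slc35c1 in pattern, which were chosen for a profile that is highest in KO replicate 4: Atg9a at 968 normalized counts, Synj1 at 1159, Dnajc4 at 524, Tspan15 at 3198 and Scamp1 at 1038. It was also so for the epithelial genes Cdhr5 at 18826, Mep1a at 4431 and Cdhr2 at 15273, and for Cd4 at 88.1. WT replicate 4 was the outlying library for Synj1 at 401, for Cd8b1 at 1.01 and for the neutrophil enzyme gene Mpo at 23.3.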

How the results depend on the processing

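The log2 fold changes of Slc35c1 and Fuca1 stayed positive and short of an adjusted p of 0.05 under every alternative run. That threshold was passed by 8 of 19985 genes as deposited. Of the 1428 selected genes refitted (1192 with a minimum mean of 10), 37 passed it with DESeq2 and 0 in the edgeR refits (deposited size factors, TMM, minimum mean of 10, replicate block), in both limma fits and without any 1 library (0 to 0), while 1112 of them had an unadjusted edgeR p below 0.05. The 2 listed fucose genes both kept an unadjusted p below 0.05 with edgeR, DESeq2 and limma. With TMM or the replicate block 0 did, and with 1 library left out 0 to 2 did. The TMM results cannot decide the point, since TMM takes most genes as unchanged and every listed gene was selected for a difference. Of the 1428 listed genes, 1355 kept such a p with unchanged sign with DESeq2, and 1027 (pseudocount 1) and 984 (pseudocount 0.1) with limma. The count was 890 with TMM, 559 with the replicate block and 643 to 918 with 1 library left out. Keeping and losing such a p were both common in the list, so neither sets these 2 genes apart. The exact permutation test of Fuca1 lost its call with TMM (log2 difference 0.25, p = 0.200) and in an exact sign-flip test with the replicate block (0.41, p = 0.125, the smallest it allows); with 1 library left out the difference ran from 0.27 to 0.51. It also lost the call in the exact permutation test without any 1 WT library (p = 0.114 without replicate 1, 2 or 3, and 0.0857 without replicate 4), and kept it without any 1 KO library (p = 0.0286). With the deposited size factors, every remaining KO library of Fuca1 lay above every remaining WT library in each of these. The log2 difference of Slc35c1 in the exact permutation test was 0.36 with TMM (p = 0.0857). With 1 library left out it ran from 0.37 to 0.62, and passed only without WT replicate 3, the library that overlapped KO (exact permutation p = 0.0286). The ratio of Slc35c1 to Fuca1 turned to -0.061 on the log2 scale without WT replicate 4 (p = 0.771, exact permutation test) and otherwise ran up to 0.24. Of the 5 fucose genes with a miR-29 match, 0 had the 8-base match. Where no cause is given, the cause was not tested. Same-numbered KO and WT libraries are not stated to be paired, and their deviations correlated at 0.054, -0.020, -0.19 and -0.24, so the numbers were not taken as pairs. For single named genes, 625 alternative fits left the call as it was, 14 took it from Fosb, and 1, the DESeq2 refit, gave it to Cd22. Only Fosb among these genes had a call as deposited, and it kept it only with DESeq2. The rest of the 625 are genes without a call that stayed without one, mostly in fits where no listed gene passed. The 625 therefore do not measure how stable the results are.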

Other observations

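On chromosome 4, 3 genes that start within 500000 bases before Fuca1 were listed, all higher in KO. How many annotated genes lie in that stretch was not counted, so no share can be set beside the 3. Cnr2, a cannabinoid receptor gene of immune cells, lies on the same strand and ends 527 bases before Fuca1 starts in the table's coordinates; it had 21.2, 48.2, 24.0 and 53.8 normalized counts in KO replicates 1 to 4, against 13.6, 17.5, 8.09 and 12.1 in WT replicates 1 to 4. Its order of libraries was not that of Fuca1, as KO replicate 1 was its lowest KO library. Il22ra1 starts 208497 bases before Fuca1 and encodes a subunit of the receptor for interleukin-22, a cytokine known in mice to raise epithelial fucosylation through Fut2. It had 607, 631, 492 and 1010 normalized counts in KO replicates 1 to 4, against 252, 356, 414 and 209 in WT replicates 1 to 4, so every KO library was above every WT library, as for 23.9% of the listed genes. The authors' deposited table gives it a log2 fold change of 1.15 and a DESeq2 adjusted p of 0.185. Without KO replicate 4 its mean in KO was 1.87 times that in WT. Gm25317, annotated as a microRNA gene, had 2.67 to 6.43 normalized counts in KO libraries and 0 in the 4 WT libraries. These counts are near the floor, and such separation was found in 23.9% of the listed genes. No listed gene started within 500000 bases of Slc35c1. Any relation of these genes to the Fuca1 values was not tested.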
